A study of Mus musculus with 9 samples.

Results

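Interleukin 6, oncostatin M and their relatives signal through gp130. The 7 genes described here are 4 ligand genes of this family (Il6, Osm, Lif and Clcf1), the genes of 2 receptor chains that bind a ligand (Il6ra and Osmr), and Il6st, the gene of gp130 itself. They were taken by symbol from a table of 54059 genes, of which 11450 had a mean FPKM (fragments per kilobase of transcript, scaled to the mapped reads of the library) of at least 1 over the 9 libraries and were tested. Of the 7 genes, 6 were among those tested, and Clcf1 was not.

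The RNA came from adherent peritoneal macrophages of C57BL/6 mice, 8 weeks old by the labels, harvested 3 days after an injection of starch broth. All 9 samples were exposed to imiquimod (IMQ), an agonist of the RNA sensor TLR7, for 4 h in vitro, and no sample without IMQ was part of the set. There were 3 wild-type samples, 3 samples of M-Shp2-/- mice (SHP2lyz2-/- in the labels), whose Lyz2-cre allele removes Shp2 in myeloid cells, and 3 samples of wild-type cells given 10 µM SHP099, an allosteric inhibitor of SHP2, for 2 h before IMQ. IMQ was used at 10 µg/ml in the SHP099 experiment, where the control cells had medium without SHP099, and the dose for M-Shp2-/- cells is not stated for the sequencing, although it was the same in other assays of such cells. The Cre sits in Lyz2, a gene that is itself read in these libraries. The depth was 39842097 to 50979931 reads per library.

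The ligands of this family bind a receptor chain of their own and then bring gp130 into a complex at the cell surface. Janus kinases bound to gp130 phosphorylate it, STAT3 docks and moves to the nucleus, SOCS3 shuts the signal off, and SHP2, which docks on the same tail, links gp130 to the Ras and MAP kinase cascade. Macrophages that sense microbial nucleic acid are a classic source of IL-6 and oncostatin M, while the oncostatin M receptor is best known from fibroblasts, endothelium and epithelium.

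The targeted gene was read first. Ptpn11, the gene of SHP2 (ENSMUSG00000043733), had an FPKM of 45.8, 44.0 and 40.0 in the wild-type libraries, 18.6, 17.8 and 18.9 in the M-Shp2-/- libraries, and 43.0, 42.1 and 39.6 after SHP099. The M-Shp2-/- libraries lay far below all others. The log2 fold change, here and below a difference of mean log2(FPKM + 1), was -1.19 in M-Shp2-/- cells (adjusted p = 0.0168 from limma) and -0.05 after SHP099 (adjusted p = 0.729). The call in M-Shp2-/- cells was lost without wild-type library 1 or 2 and without M-Shp2-/- library 1 or 2. It was also lost without the libraries richest in stromal markers, described next, with replicate number as a block, and at the study's thresholds given below.

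Markers of macrophages dominated every library. The summed FPKM of 8 macrophage markers was 10420, 13421 and 11189 in wild-type, 7595, 7468 and 8412 in M-Shp2-/- and 11778, 13005 and 13736 in SHP099 libraries, most of it Lyz2, the gene that carries the Cre allele in M-Shp2-/- mice. None of the 8 was at 0 in any library, and 1 was called, Csf1r, which was higher after SHP099 (log2 fold change 1.38, adjusted p = 0.0222 from limma). Fibroblast and mesothelial markers were present at uneven levels: the 9 markers summed to 64.8, 305 and 40.3 in the wild-type libraries, 137, 52.4 and 590 in the M-Shp2-/- libraries, and 365, 140 and 102 after SHP099. Col1a1 was the most abundant of them, 8 of 9 were above 0 in every library, and 0 of the 6 that could be tested were called by limma in any of the 3 comparisons, with no unadjusted p under 0.05. One library of each group thus stood out, wild-type library 2, M-Shp2-/- library 3 and SHP099 library 1, called stroma-rich below. Markers of lymphocytes and granulocytes were scarce, with summed FPKM of 1.00 to 20.0 for 5 B cell genes, 0.388 to 3.84 for 5 T and NK cell genes (Trac the most abundant), 2.92 to 5.02 for 5 neutrophil genes (nearly all Camp) and 0.209 to 3.62 for 5 mast cell and eosinophil genes (Tpsb2 the most abundant). The 5 dendritic cell genes summed to 3.56 to 7.40 without SHP099 and to 1.03 to 1.50 with it. Ccr7, the most abundant of them on average over the 9 libraries, was called lower after SHP099 (-1.52, adjusted p = 0.0192), and the part of such cells in the results below was not tested. No marker was at 0 in all 9 libraries. In bulk RNA, fewer cells of a type and less RNA per cell cannot be told apart.

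Il6 encodes interleukin 6, the founding cytokine of the family, and lies on chromosome 5 (ENSMUSG00000025746, chr5:30013114-30019981, plus strand of GRCm38). Its FPKM was 221, 237 and 258 in the wild-type libraries, 51.3, 54.1 and 51.3 in the M-Shp2-/- libraries, and 25.9, 18.3 and 58.4 after SHP099. Every wild-type library was far above every other library, the M-Shp2-/- libraries were nearly equal, and the SHP099 libraries were spread on both sides of them. Means were 238.5 ± 18.8, 52.2 ± 1.58 and 34.2 ± 21.3 (SD, n = 3 each), so that 21.9% of the wild-type level remained in M-Shp2-/- cells and 14.4% after SHP099. These values rest on 932 to 15371 reads per library. Ranked by mean FPKM among the 11450 tested genes, Il6 stood at place 464 in wild-type, 2302 in M-Shp2-/- and 3309 in SHP099 cells.

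The log2 fold change of Il6 was -2.17 in M-Shp2-/- cells (SE 0.09, 95% interval -2.38 to -1.95, adjusted p = 0.00117 from limma). It lost the call when all 9 libraries shared one fit (adjusted p = 0.0820; the range over 17 alternatives was 0.000757 to 0.0820). After SHP099 it was -2.93 (SE 0.37, 95% interval -3.80 to -2.06, adjusted p = 0.0129 from limma). That call was lost without SHP099 library 1 (-2.82, adjusted p = 0.0541), without the stroma-rich library of each group (-2.82, adjusted p = 0.0665) and with no filter on low values (adjusted p = 0.0740), in a range of 0.00536 to 0.0740 over 17 alternatives. Both comparisons use the same 3 wild-type libraries and are not independent of each other. Whether those libraries were prepared with the M-Shp2-/- samples, with the SHP099 samples or with both is not stated, so a difference between experiments cannot be told apart from the group in at least one comparison if the preparations were separate.

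Lif encodes leukemia inhibitory factor, which signals through gp130 paired with the LIF receptor (ENSMUSG00000034394, chr11:4257557-4272514, plus strand). Its FPKM was 75.3, 83.9 and 95.2 in the wild-type libraries, 32.0, 30.8 and 54.8 in the M-Shp2-/- libraries, and 16.6, 14.8 and 28.2 after SHP099. The 3 groups formed steps with no overlap, and M-Shp2-/- library 3, the one richest in stromal markers, was the highest of its group. The part of stromal RNA in that value was not tested. Of the wild-type mean of 84.8 ± 10.0 (SD, n = 3), 46.2% remained in M-Shp2-/- and 23.4% in SHP099 cells. The log2 fold change after SHP099 was -2.09 (SE 0.23, 95% interval -2.62 to -1.55, adjusted p = 0.00846 from limma), and the call was lost with no filter (adjusted p = 0.0629) and without the stroma-rich libraries (-2.00, adjusted p = 0.0581), in a range of 0.00674 to 0.0629. In M-Shp2-/- cells it was -1.14 (SE 0.23, 95% interval -1.68 to -0.59, adjusted p = 0.388) and did not pass, except without M-Shp2-/- library 3 (-1.40, adjusted p = 0.0473, in a range of 0.0473 to 0.890).

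Osm, the gene of oncostatin M, lies 16530 bases before Lif on the same strand (ENSMUSG00000058755, chr11:4236420-4241026). Its FPKM was 49.3, 63.6 and 53.9 in the wild-type libraries, 23.8, 18.9 and 34.9 in the M-Shp2-/- libraries, and 23.3, 13.7 and 23.0 after SHP099. Wild-type libraries were again the highest, and the other 6 were mixed, with M-Shp2-/- library 3 at their top. On average 46.5% of the wild-type level of 55.6 ± 7.29 (SD, n = 3) remained in M-Shp2-/- and 36.0% in SHP099 cells. The log2 fold change was -1.46 after SHP099 (SE 0.21, 95% interval -1.95 to -0.97, adjusted p = 0.0176 from limma). The call was lost without SHP099 library 3 (-1.58, adjusted p = 0.0502), with no filter (adjusted p = 0.0811) and without the stroma-rich libraries (-1.48, adjusted p = 0.0665), in a range of 0.0145 to 0.0811. In M-Shp2-/- cells the log2 fold change of -1.11 (SE 0.22, 95% interval -1.65 to -0.58, adjusted p = 0.388) did not pass in the fit reported here or in any of 17 alternatives.

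Clcf1 encodes cardiotrophin-like cytokine factor 1, a ligand of the CNTF receptor (ENSMUSG00000040663, chr19:4214238-4223490, plus strand). It was close to the limit of detection, with 4, 10 and 8 reads in the wild-type, 3, 4 and 8 in the M-Shp2-/- and 7, 0 and 2 in the SHP099 libraries. The highest FPKM was 0.119, and 3 reads, the upper limit that a count of 0 allows, correspond to 0.0354 to 0.0454. Of its exon bases, 311 are shared with AC109138.7 on the same strand. With no filter on low values it was tested and was not called in any comparison, where depth allows little to be seen.

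**Figure D1:**
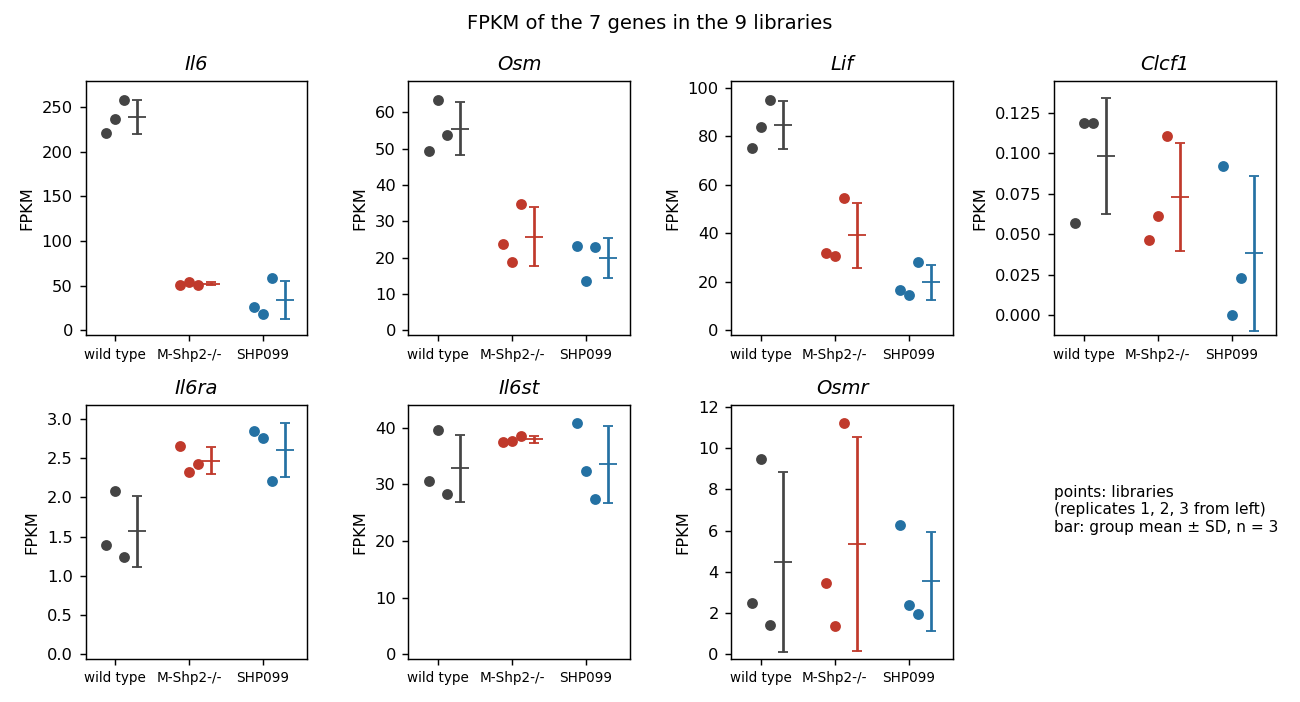
FPKM of the 7 genes in each library (points) with the group mean and SD (n = 3 per group), each gene on its own axis. Wild-type libraries were above all others for Il6, Osm and Lif, below all others for Il6ra, and mixed with the rest for Il6st and Osmr.

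Over all genes, 10 of 11450 (0.0873%) were called by limma between M-Shp2-/- and wild-type macrophages, at an adjusted p up to 0.05, the threshold for a call. Each of them was lower in M-Shp2-/- cells, with Il6 the member among them. An unadjusted p under 0.05 was reached by 1204 genes (10.5%), and by 2280 without M-Shp2-/- library 3, so few calls do not mean few differences. With no filter on low values 11 were called, 6 lower and 5 higher, and 1 gene was higher with quantile normalization, with all 9 libraries in one fit and without the stroma-rich libraries. The count of 10 fell to 1 without wild-type library 2, M-Shp2-/- library 1 or M-Shp2-/- library 2, to 2 without wild-type library 1 and to 5 without wild-type library 3. At the study's thresholds (adjusted p of 0.005 and a log2 fold change of 1) the count by limma was 1 (0.00873%), and that gene was Il6. The study set these thresholds for DESeq on counts, so such counts by limma are not the study's own result. The highest M-Shp2-/- library was under the lowest wild-type library for Il6, Osm and Lif, as for 3.07% of tested genes, and the groups stood apart the other way for Il6ra, as for 16.0%. After SHP099, 797 genes were called (6.96%), 276 of them lower (2.41%), including Il6, Osm and Lif. The 797 became 47 without SHP099 library 2, 90 without library 1, 116 without library 3, and 284, 399 and 1273 without wild-type library 1, 2 and 3. The study's thresholds left 19 genes (0.166%) and 0 of the 7 members by limma, of which 4 had an unadjusted p under 0.05. At the threshold of 0.05, voom called 3 members, as limma did. The SHP099 libraries lay below wild type for the same 3 ligands, as for 6.77% of tested genes, and above it for Il6ra, as for 27.9%. The median log2 fold change over all tested genes was 0.15 for M-Shp2-/- and 0.13 for SHP099 against wild type, and median-of-ratios scaling lowered these by 0.14 and 0.13. With that scaling the fold changes of Il6 were -2.32 and -3.07, and the 797 calls after SHP099, 521 higher and 276 lower, became 200 higher and 375 lower (344 and 356 with quantile normalization).

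**Figure D2:**
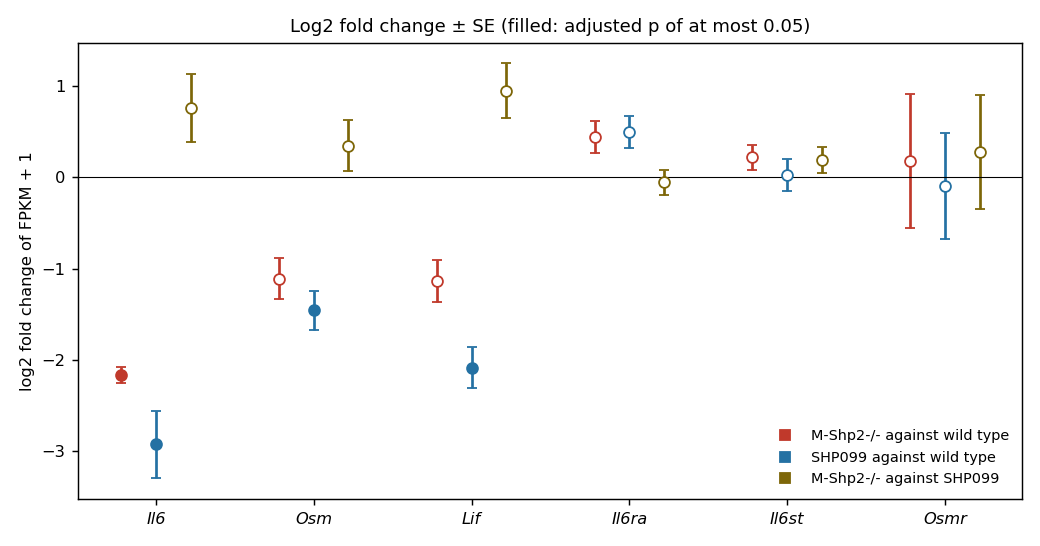
Log2 fold change of FPKM + 1 with its standard error for the 6 tested genes in 3 comparisons of 3 against 3 libraries; filled points have an adjusted p of at most 0.05 (limma). Il6 is filled in both comparisons with wild type, Osm and Lif in the comparison of SHP099 with wild type, and no point is filled between M-Shp2-/- and SHP099.

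The 2 reduced groups were also compared with each other. Of all tested genes, 8 were called between them (0.0699%), 3 higher and 5 lower in M-Shp2-/- cells (5 higher and 2 lower with median-of-ratios scaling), and 0 of the 6 tested members were among them by limma or by voom. Lif had the only unadjusted p under 0.05 of the 6, with a log2 difference of 0.95 in favour of M-Shp2-/- cells (SE 0.30, 95% interval 0.24 to 1.66, adjusted p = 0.331). It was higher in all 3 M-Shp2-/- libraries, as were 7.90% of tested genes. For Il6 the difference was 0.76 (95% interval -0.14 to 1.66, adjusted p = 0.446) and for Osm 0.35 (95% interval -0.31 to 1.00, adjusted p = 0.619). Both intervals reach from below 0 to 1 or more. With single libraries left out Il6 ranged from 0.41 to 1.22 and Osm from 0.11 to 0.54, and without the stroma-rich libraries Lif was at 0.59. The count of 8 rested on the libraries used: it was 2277 without M-Shp2-/- library 3, 2054 without the stroma-rich library of both groups and 0 to 2 without any other library.

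The stretches just before the start sites of Il6 and Lif are shown because both transcripts fell together after SHP099. The RefSeq promoter table (GRCm38.p6) held 5 of the 7 members, and Osm and Clcf1 had no entry. Each sequence below is the 250 bases before the RefSeq start site on the plus strand, 5′ to 3′, with motif matches in capitals. Il6 comes from chr5:30012864-30013113 and Lif from chr11:4257318-4257567, whose last 11 bases lie inside the first exon of Lif in GENCODE.

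Il6: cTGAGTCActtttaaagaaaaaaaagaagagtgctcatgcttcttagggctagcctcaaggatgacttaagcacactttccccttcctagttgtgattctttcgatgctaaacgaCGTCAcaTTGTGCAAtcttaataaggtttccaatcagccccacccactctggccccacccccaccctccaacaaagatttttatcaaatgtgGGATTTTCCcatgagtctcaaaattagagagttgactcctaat
Lif: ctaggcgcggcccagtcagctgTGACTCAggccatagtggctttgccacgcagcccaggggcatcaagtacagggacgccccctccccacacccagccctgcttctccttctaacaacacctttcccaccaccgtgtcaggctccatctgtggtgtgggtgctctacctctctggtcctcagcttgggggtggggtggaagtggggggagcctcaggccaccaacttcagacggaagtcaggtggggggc

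Both strands were searched for 5 motifs, and the capitals mark all matches found. The Il6 window held 1 match each to AP-1 (TGANTCA, bases -249 to -243 from the start site), CRE (TGACG, found on the reverse strand at -135 to -131), C/EBP (TTNNGNAA, -128 to -121) and NF-kB (GGNNNTTCC, -43 to -35), with no overlap between them. The Lif window held an AP-1 match at -228 to -222 and none of the other 4. Il6ra had 2 C/EBP matches and a CRE match, and Il6st and Osmr had no match to any of the 5. The STAT motif (TTCNNNGAA) was in none of these 5 windows. Among 32851 RefSeq promoters of the same length, 6.75% held the AP-1, 17.8% the CRE, 36.8% the C/EBP, 15.7% the NF-kB and 7.02% the STAT motif. Such matches describe letters in a window and say nothing of binding in these cells.

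**Figure D3:**
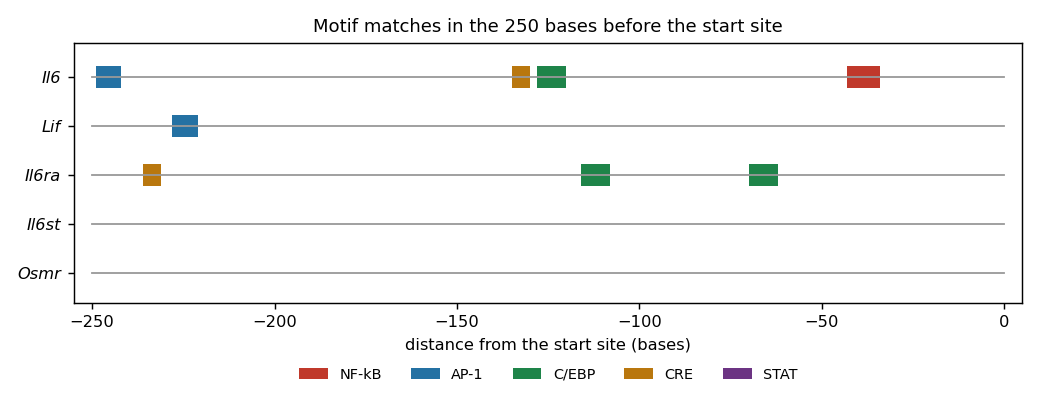
Matches to 5 short motifs in the 250 bases before the RefSeq start site of the 5 members with a promoter entry; the horizontal axis is the distance from the start site in bases. Il6 carries 4 kinds of match, Il6ra 2 kinds and Lif 1, while the lines of Il6st and Osmr are empty.

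None of the 3 receptor chain genes was called by limma in any comparison, with Il6ra at an unadjusted p under 0.05 in both comparisons with wild type. Il6st, which encodes gp130, the chain shared by the whole family (ENSMUSG00000021756, chr13:112464070-112510086, plus strand), had an FPKM of 30.6, 39.6 and 28.3 in wild-type, 37.6, 37.7 and 38.6 in M-Shp2-/- and 40.8, 32.4 and 27.5 in SHP099 libraries. The 3 groups overlapped, and the highest library of each group was its stroma-rich one. The log2 fold change was 0.22 in M-Shp2-/- cells (95% interval -0.11 to 0.54, adjusted p = 0.525 from limma) and 0.07 with median-of-ratios scaling. After SHP099 it was 0.03 (95% interval -0.39 to 0.44, adjusted p = 0.939), and its sign turned with median-of-ratios scaling (-0.11). Both intervals exclude a fall to 50% of the wild-type level, which would be -1 on this scale.

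Il6ra encodes the chain that binds interleukin 6 before gp130 joins (ENSMUSG00000027947, chr3:89864059-89913196, minus strand). Its FPKM was 1.39, 2.09 and 1.24 in wild-type, 2.66, 2.32 and 2.42 in M-Shp2-/- and 2.84, 2.76 and 2.21 in SHP099 libraries, from 315 to 748 reads. Wild-type libraries were the lowest 3 of the 9. Against wild type, M-Shp2-/- cells differed by 0.45 (SE 0.18, adjusted p = 0.467 from limma) and SHP099 cells by 0.50 (SE 0.18, adjusted p = 0.134) on the log2 scale, which did not pass. Over 16 alternatives the values were 0.19 to 0.67 and 0.21 to 0.74, with no call in any. A separation upward was common among all genes, as given above. The annotated Gm42809 on the opposite strand shares 242 exon bases with Il6ra, and the strand of counting is not given, but its FPKM was at most 0.0193. Per unit of Il6ra FPKM, Il6 stood at 113 to 209 in the wild-type, 19.3 to 23.3 in the M-Shp2-/- and 6.66 to 26.5 in the SHP099 libraries. Il6st stood at 19.0 to 22.9, 14.1 to 16.2 and 11.7 to 14.4 per unit of Il6ra. These ratios were formed after the values were seen and carry no test.

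Osmr encodes the receptor chain that pairs with gp130 to bind oncostatin M (ENSMUSG00000022146, chr15:6813577-6874969, minus strand). Its FPKM was 2.48, 9.46 and 1.42 in wild-type, 3.45, 1.37 and 11.2 in M-Shp2-/- and 6.29, 2.40 and 1.93 in SHP099 libraries. The spread within each group was larger than any difference between groups, and the highest library of each group was the one richest in fibroblast and mesothelial markers. The log2 fold changes were 0.18 in M-Shp2-/- cells (95% interval -1.57 to 1.94, adjusted p = 0.908 from limma) and -0.09 after SHP099 (95% interval -1.45 to 1.27, adjusted p = 0.936), and the sign of each turned when single libraries were left out (-0.45 to 0.80 and -0.53 to 0.52). Per 1000 FPKM of the 9 summed markers, Osmr stood at 38.3, 31.0 and 35.3 in wild-type, 25.2, 26.2 and 19.0 in M-Shp2-/- and 17.3, 17.2 and 18.9 in SHP099 libraries. The ratio thus varied far less within a group than Osmr itself. It was chosen after the values were seen and was not tested.

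**Figure D4:**
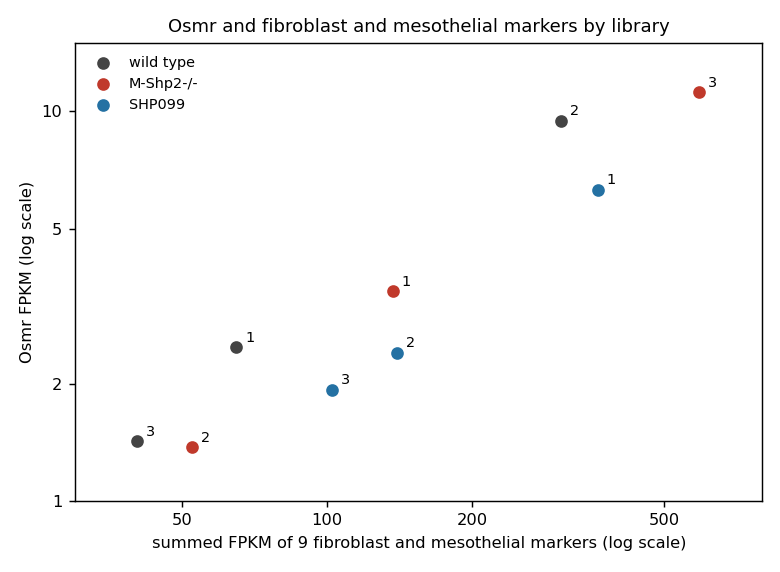
Osmr FPKM against the summed FPKM of 9 fibroblast and mesothelial markers in the 9 libraries, both on a log scale, with the replicate number beside each point. Libraries with more marker RNA had more Osmr in each group, from 1.37 to 11.2 FPKM in M-Shp2-/- cells.

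The order of the levels, compared by FPKM and so per length, changed between the groups. In wild-type cells it ran Il6, Lif, Osm, Il6st, Osmr, Il6ra and Clcf1, and Osmr and Il6ra were the only neighbours whose libraries overlapped. In M-Shp2-/- cells Il6st moved above Osm, and Il6 overlapped with Lif, Lif with Il6st, and Osmr with Il6ra. After SHP099 the order was Il6, Il6st, Osm, Lif, Osmr, Il6ra and Clcf1, and Il6 overlapped with Il6st, Osm with Lif, and Osmr with Il6ra. In wild-type macrophages the 3 expressed ligands were all above their shared receptor chain, and in SHP099 cells Il6st was above Osm and Lif in mean FPKM.

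Genes with the most similar profile to each member were taken from all tested genes by Pearson correlation of log2(FPKM + 1) over the 9 libraries, which are 3 groups of 3 and not 9 independent points. For Il6 they were Ptgs2, the gene of cyclooxygenase 2 (r = 0.993), Srgn, the gene of the granule proteoglycan serglycin (r = 0.978), and Il1b, the gene of interleukin 1 beta (r = 0.977), whose exons share 25 bases with Il1bos on the opposite strand. For Osm they were the chemokine gene Ccl7 (r = 0.975), the adaptor gene Samsn1 (r = 0.968) and the transcription factor gene Nfil3 (r = 0.961). For Lif they were Ppp1r15b, which encodes a subunit of an eIF2 alpha phosphatase (r = 0.974), Srgn (r = 0.964) and the transcription factor gene Foxp1 (r = 0.958). Srgn was near both Il6 and Lif, with an FPKM of 520 to 681 in wild-type, 254 to 332 in M-Shp2-/- and 187 to 276 in SHP099 libraries. Il6ra was most like Ccdc85b (r = 0.992), whose exons overlap Fosl1 on the opposite strand, the lysosomal membrane gene Laptm4b (r = 0.992) and the ubiquitin ligase gene Mib2 (r = 0.987). Il6st was most like Pcyox1l, Rabepk and Tpm1 (r = 0.976, 0.971 and 0.946). The genes nearest to Osmr included Gpx7 (r = 0.995) and Il1r1, the gene of the interleukin 1 receptor (r = 0.994). Exons of Ppp1r15b and Foxp1 also overlap other annotated genes.

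The counts in the lists that follow stand against those over all 11450 tested genes. In M-Shp2-/- cells 10 were called (0.0873%) and 1204 had an unadjusted p under 0.05, and after SHP099 797 were called (6.96%), 276 lower and 521 higher, and 3061 had an unadjusted p under 0.05.

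Other ligands of the family were mostly near 0. Of 8 ligand genes, 2 passed the filter, and 0 of these were called by limma in any comparison (Il27 had an unadjusted p of 0.0145 and 0.00564 against wild type). Il27, which encodes the p28 subunit of interleukin 27, had an FPKM of 89.4, 48.1 and 114 in wild-type, 41.5, 40.7 and 21.6 in M-Shp2-/- and 21.3, 21.8 and 44.7 in SHP099 libraries. Wild-type libraries were the highest 3, but M-Shp2-/- cells (log2 fold change -1.23, adjusted p = 0.454 from limma) and SHP099 cells (-1.49, adjusted p = 0.0602 from limma) both missed the threshold. In SHP099 cells Il27 was called without wild-type library 2 and with the replicate block. Ebi3, the gene of its partner subunit, was at 11.3 to 20.4 with all groups overlapping. Exons of both share bases with genes on the opposite strand. Il11, Cntf, Ctf1 and Ctf2 were at or below 0.433 FPKM, and Il31 was listed at 0 in all 9 libraries. The medians of the 2 tested ligands were -0.58 and -0.83, against 0.15 and 0.13 over all genes, and -0.74 and -0.96 with median-of-ratios scaling.

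Among 5 other receptor chains, 3 passed the filter and 0 were called by limma, with no unadjusted p under 0.05. The medians were 0.05 and -0.16, and with median-of-ratios scaling -0.09 and -0.25, so that the sign turned for M-Shp2-/-. Il11ra1, which encodes the interleukin 11 receptor, was by far the most abundant at 93.9 to 125 FPKM in all groups. Il27ra, the receptor gene for interleukin 27, was at 0.967 to 3.19 and Lifr, the LIF receptor gene, at 0.499 to 1.81. Cntfr and Il31ra did not exceed 0.0934. Of the 2 sheddase genes whose proteins release receptor ectodomains, Adam10 rose after SHP099 from 59.1, 68.6 and 58.0 to 92.6, 90.6 and 79.5 FPKM (log2 fold change 0.49, adjusted p = 0.0366 from limma), and Adam17 was at 137 to 180 in wild-type and 193 to 243 in SHP099 libraries (0.39, adjusted p = 0.121). In M-Shp2-/- cells Adam10 was at 0.31 (adjusted p = 0.517 from limma) and Adam17 at 0.28 (adjusted p = 0.470).

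Downstream of the receptor, 21 genes of signal transduction were all expressed. In M-Shp2-/- cells 1 was called, the targeted Ptpn11, against 0.0873% of all tested genes, and the median was 0.01 (-0.14 with median-of-ratios scaling). After SHP099, 3 of the 21 were called, 2 lower and 1 higher, against 6.96% of all tested genes (276 lower and 521 higher). Jak2, a kinase that binds gp130, fell from 135, 176 and 142 to 91.0, 96.7 and 115 FPKM (-0.57, adjusted p = 0.0485 from limma). Stat5a, a STAT of the cytokine receptors, fell from 70.9, 38.6 and 43.7 to 25.9, 26.4 and 24.4 (-0.92, adjusted p = 0.0477). The median was 0.04 (-0.11 with median-of-ratios scaling). In M-Shp2-/- cells Jak2 was at -0.46 (adjusted p = 0.448 from limma) and Stat5a at -0.22 (adjusted p = 0.798). Exons of Stat5a share 72 bases with Stat3 on the opposite strand, so its value is uncertain. Jak1 and Mapk3, the most abundant genes of the list, were at 249 to 315 and 137 to 174 FPKM and were not called.

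The feedback inhibitors were 8 genes, of which 0 were called in M-Shp2-/- cells (3 had an unadjusted p under 0.05) and 2 after SHP099, both lower, against 0.0873% of all tested genes called in M-Shp2-/- cells and 6.96% after SHP099 (2.41% lower). Socs3, the inhibitor that binds gp130 itself, had an FPKM of 888, 1010 and 1517 in wild-type, 488, 443 and 434 in M-Shp2-/- and 368, 315 and 450 in SHP099 libraries. Its log2 fold change was -1.28 (adjusted p = 0.204 from limma) and -1.57 (adjusted p = 0.0157). Cish, an inhibitor of STAT5 signaling, stood at 16.5, 11.3 and 13.1, then 4.80, 5.51 and 1.88, then 2.36, 0.873 and 2.31 in the same order. Its log2 fold change was -1.60 in M-Shp2-/- cells, which did not pass (adjusted p = 0.388 from limma), and -2.39 after SHP099 (adjusted p = 0.00846 from limma). For both genes the wild-type libraries were the highest 3. Socs1 was at 14.4 to 42.7 in wild-type, 4.63 to 9.51 in M-Shp2-/- and 3.31 to 7.91 in SHP099 libraries and missed the threshold (-1.44, adjusted p = 0.455, and -1.87, adjusted p = 0.0534). After SHP099 it was called at a minimum of 5 FPKM, with all 9 libraries in one fit, with the replicate block and without wild-type library 3. Socs2, Pias3 and the phosphatase genes Ptpn1, Ptpn2 and Ptpn6 were not called. The list's medians were -0.11 and -0.49 (-0.26 and -0.60 with median-of-ratios scaling). Exons of Cish overlap Gm17040 and Gm17041 on the opposite strand.

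Of 19 target genes of gp130 and STAT3, 18 were tested, and 0 were called in M-Shp2-/- cells by limma or voom (6 had an unadjusted p under 0.05). After SHP099, 4 of the 18 were called, 3 lower and 1 higher, against 6.96% of all tested genes (276 lower and 521 higher). Besides Socs3, Bcl3, a nuclear partner of NF-kB, fell from 82.8, 102 and 86.9 to 51.1, 39.5 and 48.1 FPKM (-0.96, adjusted p = 0.0136). Fos, a subunit of AP-1, fell from 9.29, 9.13 and 2.73 to 1.19, 1.17 and 1.32 (-1.71, adjusted p = 0.0445), and stood at 6.19, 4.98 and 5.60 in M-Shp2-/- cells, above SHP099 (1.56, adjusted p = 0.0163). That last call was lost with no filter, with all 9 libraries in one fit, with the replicate block and at the study's thresholds. It was also lost without any single library other than M-Shp2-/- library 3, and at a minimum of 5 FPKM Fos was not tested. Bcl6, a transcriptional repressor, rose from 3.19, 4.13 and 4.33 to 7.01, 17.5 and 10.9 after SHP099 (1.31, adjusted p = 0.0439). In M-Shp2-/- cells the log2 fold changes against wild type were -0.41 for Bcl3 (adjusted p = 0.467 from limma), -0.15 for Fos (adjusted p = 0.856) and 0.14 for Bcl6 (adjusted p = 0.834). Saa3, an acute-phase gene, was the most abundant at 1187 to 8626 FPKM and varied as much within groups as between them, and Junb, at 500 to 1275, was not called. The medians were -0.14 and -0.33 (-0.28 and -0.47 with median-of-ratios scaling). Exons of Bcl3, Bcl6 and Junb overlap genes on the opposite strand.

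Among 15 transcription factor genes that act on the Il6 promoter, 0 were called in M-Shp2-/- cells (4 had an unadjusted p under 0.05), and 3 were called after SHP099, Fos and Fosl2 lower and Jun higher, against 6.96% of all tested genes. Fosl2, another AP-1 subunit, fell from 84.2, 101 and 107 to 58.5, 48.9 and 71.3 FPKM (-0.71, adjusted p = 0.0418), and Jun rose from 32.0, 33.6 and 27.8 to 42.4, 44.9 and 40.5 (0.44, adjusted p = 0.0438), with exons that overlap Junos on the opposite strand. In M-Shp2-/- cells the log2 fold changes were of like size without a call, at -0.79 for Fosl2 (adjusted p = 0.460 from limma) and 0.48 for Jun (adjusted p = 0.478). Irf1 was at 249, 286 and 1062 in the wild-type libraries, so that library 3 stood apart in this gene, as it was also the highest in Socs1, Socs3 and Junb. The medians were -0.20 and -0.03 (-0.33 and -0.17 with median-of-ratios scaling). Of 8 genes whose proteins act on the stability of Il6 mRNA, 1 was called after SHP099 (6.96% of all tested genes) and 0 in M-Shp2-/- cells (1 had an unadjusted p under 0.05), with medians of -0.11 and -0.07 (-0.25 and -0.21 scaled in the same way). It was Zc3h12a, the gene of the endonuclease Regnase-1 that degrades Il6 mRNA, at 223, 215 and 243 in wild-type, 190, 182 and 156 in M-Shp2-/- and 145, 141 and 169 in SHP099 libraries (-0.58, adjusted p = 0.0228 for SHP099). Rc3h1, Rc3h2, Zfp36, Zfp36l1, Arid5a, Elavl1 and Mapkapk2 were not called.

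**Figure D5:**
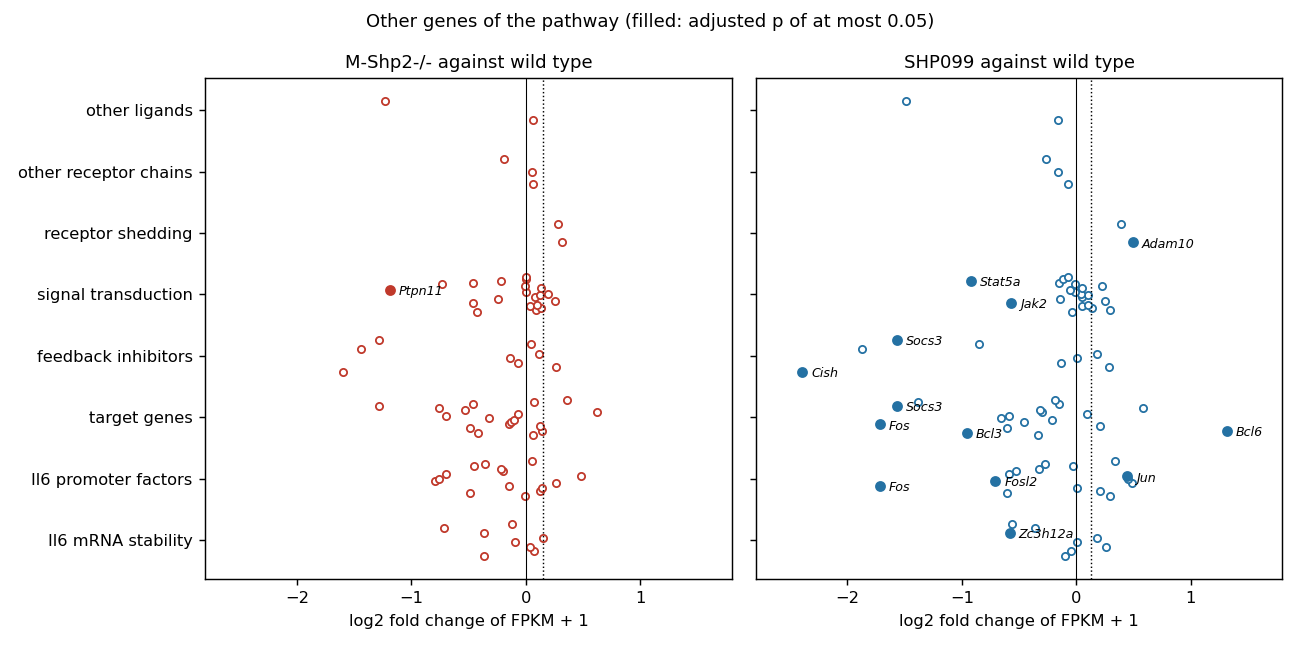
Log2 fold change against wild type of the tested genes reported from the 8 lists of the pathway, M-Shp2-/- on the left and SHP099 on the right; filled points have an adjusted p of at most 0.05 (limma), the dotted line is the median of all tested genes, and a gene in several lists is drawn in each. Ptpn11 is the filled point on the left, and 11 genes are filled on the right.

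Of the genes named from these lists 11 were called after SHP099, where 797 of all 11450 tested genes were called (6.96%). As genes were named partly for being called, the 11 are no share of the lists, and several of these calls rested on the settings. Without the stroma-rich library of each group 1 of the 11 was called, Cish, as it was without SHP099 library 2. Without SHP099 library 1 or library 3, 3 of the 11 were called each, and without wild-type library 1, 4. With no filter on low values 0 of the 11 were called by limma (8 by voom with the filter kept), although each had an unadjusted p under 0.05 in the fit reported here, and without the trend in the prior variance 4 were called. Median-of-ratios scaling kept 7 of the 11, and Adam10, Bcl6, Fosl2 and Jun were no longer called. At the study's thresholds 0 of the 11 were called by limma. Other settings added calls: Cebpb, Nfkb1 and Socs1 at a minimum of 5 FPKM and with all 9 libraries in one fit, Il27 without wild-type library 2, and Gab2, Irf1, Rela and Socs1 without wild-type library 3. The replicate block added Cebpb, Il27 and Socs1.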

How the data were processed

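RNA of 9 samples was sequenced after poly-A selection with a NEBNext Ultra kit; group and replicate were taken from the labels and the treatments from the paper's methods. Paired-end reads were mapped by the authors with HISAT2 2.0.4 and counted per gene with HTSeq 0.9.1, and the deposited values are FPKM. The FPKM tool, build, annotation and strand setting are not given in the sources used here. The labels do not say that samples of a group came from separate mice, so p-values measure only the spread between these samples. The authors' comparison by DESeq on counts was not used. The deposited values are FPKM, and reads recovered from them were tested only by voom, as an alternative.

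Symbols and positions came from GENCODE M21 (GRCm38), in which 439 genes of the table were not found. FPKM times mean transcript length gave whole reads, within 0.1 of a whole number, for 96.8% to 97.2% of values of up to 50 reads, and this gave the depth. Floors of 3 reads cover counting error only. Values were analysed as log2(FPKM + 1), which understates the change of low genes, where the mean FPKM reached 1, with limma 3.58.1 (lmFit, eBayes with trend) in R 4.3.3 on the 6 libraries compared, two-sided, with Benjamini-Hochberg adjustment and calls at 0.05. The procedure was tested on simulated data with known changes and independent noise for each gene. Such data do not copy shifts that many genes share within a library. An exact permutation test of 3 against 3 cannot give a p below 0.1 and was not used. Tables were made with pandas 2.3.3 and numpy 2.4.6 in Python 3.11.15, and plots with matplotlib 3.10.9. Correlations between libraries of a group were 0.954 to 0.992.

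Named were all members, Ptpn11, all genes of lists of up to 12 genes, genes called in the fit reported or, against wild type, in an alternative, and the 2 most abundant genes of longer lists, the 3 genes most like each member, and genes sharing exons with a member. Genes withheld for evaluation are not reported here. Members and lists were chosen with earlier results of these data known. The alternatives were pseudocounts of 0.1 and 5, no filter and a minimum of 5 FPKM, median-of-ratios and quantile scaling, no trend, all 9 libraries, the replicate block, the study's thresholds, and each library left out. Leaving out the library richest in fibroblast and mesothelial markers in each group (called stroma-rich), and voom on the recovered reads, were chosen after seeing the data.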

Additional observations from a re-analysis of the deposited data

How the results depend on the processing

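Each group holds 3 libraries, and leaving one out leaves an arm of 2. In 17 alternatives Il6, Osm and Lif kept their sign in both comparisons with wild type. For M-Shp2-/- against wild type, 10 genes became 6 without the trend, 1 at the study's thresholds, 2 without the stroma-rich libraries and 1 to 8 with single libraries left out; with all 9 libraries in one fit 0 members were called by limma (4 with an unadjusted p under 0.05), and Il6 was at -2.17 (adjusted p = 0.0820). Lif ranged from -1.40 to -0.99 with single libraries left out and was called without M-Shp2-/- library 3. Osmr was at -0.0082 with quantile normalization and at -0.45 to 0.80 with single libraries left out.

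For SHP099 against wild type, 797 genes became 74 with no filter, 19 at the study's thresholds, 50 without the stroma-rich libraries and 47 (without SHP099 library 2) to 1273 (without wild-type library 3) with single libraries left out. Members called were 0 by limma in the first 3 of these settings (4 with an unadjusted p under 0.05 in each). On the 6 libraries compared, with the filter and at 0.05, voom called 3 members here and 1 for M-Shp2-/-. With no filter, which tests 26663 genes, the log2 fold changes were -2.93 for Il6, -1.46 for Osm and -2.09 for Lif; without the stroma-rich libraries they were -2.82, -1.48 and -2.00. With single libraries left out, Il6 ranged from -3.39 to -2.58 and Osm from -1.58 to -1.22. Il6st was at -0.11 with median-of-ratios scaling, -0.057 with quantile normalization and -0.12 to 0.17 with single libraries left out, and Osmr at 0.12 without the stroma-rich libraries and -0.53 to 0.52 with single libraries left out.

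For M-Shp2-/- against SHP099, 8 genes became 3 with no filter, 17 at a minimum FPKM of 5, 3 with all 9 libraries, 0 at the study's thresholds (1437 with an unadjusted p under 0.05), 2054 without the stroma-rich libraries, 14 with voom and 0 to 2277 with single libraries left out. Il6 was at 0.41 to 1.22 and Osm at 0.11 to 0.54 with single libraries left out, and Lif at 0.59 without the stroma-rich libraries. Il6ra was at 0.0066 without the stroma-rich libraries, and Osmr at -0.36 to 0.82 with single libraries left out. Apart from fewer samples or more genes tested, the cause of these shifts was not tested.

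Deviations from the group means of samples with the same replicate number correlated at 0.492, -0.431 and 0.185 for M-Shp2-/- and wild type. They correlated at -0.041, -0.09 and 0.454 for SHP099 and wild type, and at -0.014, 0.183 and -0.047 for M-Shp2-/- and SHP099. So few values, of mixed sign, cannot decide whether the numbers pair samples across groups. With the replicate block the counts were 2, 591 and 0 by limma. Genes with an unadjusted p under 0.05 were 2340, 3317 and 1640 with the block, against 1204, 3061 and 1437 without it. No member's call changed with the block in the comparisons with wild type, and Ptpn11 was no longer called in M-Shp2-/- cells. Of the pathway genes named after SHP099, Fos, Jak2 and Stat5a were no longer called with the block and Cebpb, Il27 and Socs1 were added, and between M-Shp2-/- and SHP099 Fos and Ptpn11 were no longer called. Depth limits Clcf1, with at most 10 reads.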
